A study of Sus scrofa with 3 samples.

Results

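ABCA1, LPL, PPARG and INSIG2 are 4 genes that move lipid into and out of cells or hold sterol synthesis in check. They were taken from the porcine array by gene symbol, as the probe sets that the platform annotation assigns to 1 of these symbols and to no other gene. That gave 5 of 23935 probe sets and 4 of 6765 named genes. The genes were chosen with their signals on these same arrays known, so their ratios are a description and carry no test. Each was brighter in both lungs of the ischemia-reperfusion group than in sham lung.

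The arrays read whole lung RNA from minipigs kept free of specific pathogens. The sham array holds lung of a sham-operated minipig. The operated array holds the left lung, whose pulmonary artery was occluded transiently and reperfused with the bronchus untouched. The non-operated array holds the right lung from the same model, which was not occluded. Each group is 1 array, so there is no spread between animals and no p-value. The labels used here give no strain, age, occlusion time or reperfusion time, and do not say whether both lungs came from 1 animal. Because both are set against a single sham array, any peculiarity of that array enters both comparisons.

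ABCA1 is a membrane pump that hands cholesterol and phospholipid to apolipoprotein A-I, and its transcription is driven by the oxysterol-sensing LXR receptors. LPL is the lipase that releases fatty acids from circulating triglyceride-rich lipoproteins at the capillary wall, and macrophages make it too. PPARG is a nuclear receptor that binds DNA with an RXR partner and controls genes of lipid uptake and storage, in fat cells and also in alveolar macrophages, which clear surfactant lipid. INSIG2 sits in the endoplasmic reticulum, where with sterols bound it keeps SCAP and the SREBP transcription factors from leaving.

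Signals are MAS5 values on the log2 scale, where 1 unit is a doubling. The floor is each array's median over probe sets that are not reporter controls, 7.33 for sham and 7.31 for each of the other arrays. Values under the floor were raised to it before a ratio was taken, and such a ratio is a lower bound. Of defining lung transcripts, SFTPC, the surfactant protein C gene, was bright throughout, at 14.44, 14.56 and 14.52 on the sham, non-operated and operated arrays, and AGER, an alveolar type 1 gene, was under the floor in sham at 5.01 against 8.27 and 8.13. The liver gene ALB was below the floor on all 3.

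LPL (Entrez gene 397537), the lipid uptake enzyme, had by its brighter probe set the highest ratios among the 3 genes read above the floor on every array, which leaves out PPARG. Its brighter probe set, the one whose name ends in S2_at, read 7.91 in sham, 10.02 in the non-operated lung and 10.36 in the operated lung. Sham was the low array and stood at 1.49 times its floor, whereas the operated array stood at 8.28 times its own. This amounted to 5.47-fold more signal in the operated lung and 4.32-fold more in the non-operated lung. LPL is the only one of the 4 genes with a second probe set. The set whose name ends in S1_at was dimmer, at 6.46, 7.42 and 7.74 on the same arrays, and placed them in the same order. Its sham value fell under the floor, which leaves lower bounds of 1.33-fold for the operated and 1.07-fold for the non-operated lung. Without a floor its log2 ratios were 1.28 and 0.96, against 2.45 and 2.11 for the brighter set. Both LPL probe sets were lowest in sham, and the size of the dimmer set's ratios is bounded only from below.

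ABCA1 (Entrez gene 100152112), the lipid exporter, was read by 1 probe set at 7.64 in sham, 9.53 in the non-operated lung and 9.58 in the operated lung. Both lungs of the model lay well above sham and close to each other. The operated lung had 3.82-fold and the non-operated lung 3.70-fold the sham signal. The sham value was 1.25 times its floor, so the ratio rests on a dim reading on that array.

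PPARG (Entrez gene 397671), the transcription factor of the group, was read by 1 probe set at 6.18 in sham, 8.98 in the non-operated lung and 8.96 in the operated lung. The gene was under the floor in sham and at 3.18 and 3.13 times the floor in the non-operated and operated lung. That is at least 3.09-fold more in the operated lung and at least 3.13-fold more in the non-operated lung. Taken without the floor the log2 ratios were 2.78 and 2.80, but the sham reading behind them is below the median of its array.

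INSIG2 (Entrez gene 100170127), the sterol brake, was read by 1 probe set at 8.97 in sham, 9.95 in the non-operated lung and 10.66 in the operated lung. It was the one gene of the 4 well clear of the floor on every array, at 3.12, 6.25 and 10.2 times its level. The signals stepped upward from sham to the non-operated to the operated lung. The operated lung had 3.23-fold the sham signal and the non-operated lung 1.98-fold, just short of the 2-fold line. RefSeq lists 1 further pig gene under the INSIG2 symbol, a pseudogene, and whether this probe set also reads it was not tested.

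**Figure D1:**
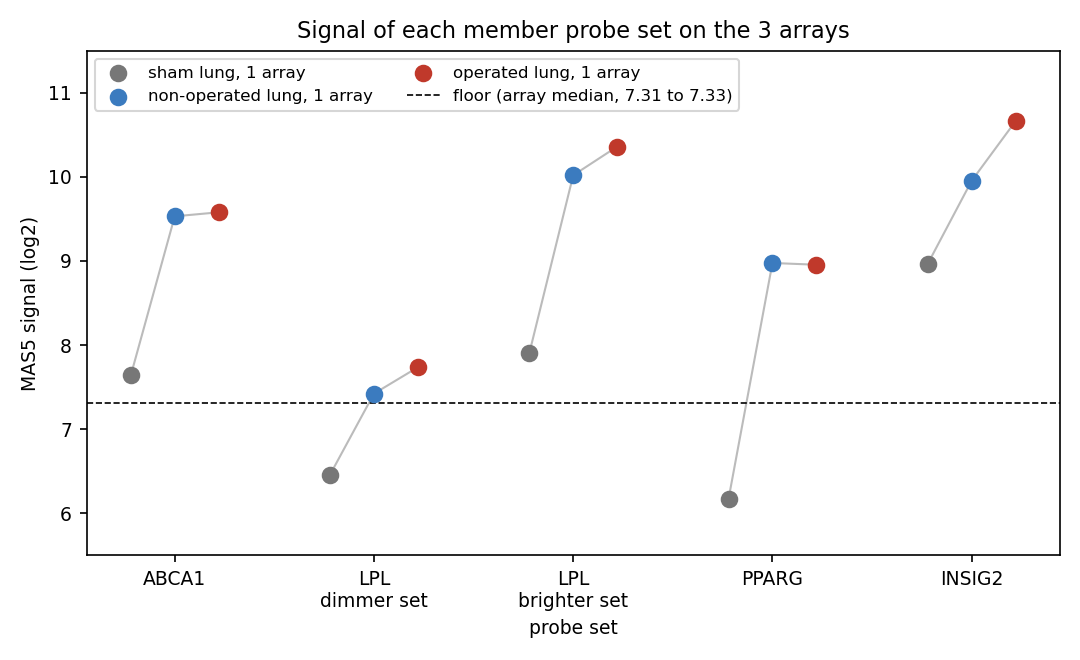
MAS5 signal (log2, vertical axis) of the 5 probe sets for ABCA1, LPL, PPARG and INSIG2 (horizontal axis) on the sham, non-operated and operated arrays, 1 point per array, with the floor as a dashed line. In every probe set the sham point is the lowest, and only INSIG2 and LPL show a visible step from the non-operated to the operated lung.

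Set among all genes, the ratios against sham lay far to the higher side. In the operated lung, 4 of the 4 genes were at least 2-fold higher, where 8.65% of the 5097 genes counted were. In the non-operated lung it was 3 of 4, where 8.96% of 5113 genes were. Since the genes were picked for these values, nothing is read from those counts. The median log2 ratio of the 4 genes was 1.81 in the operated and 1.77 in the non-operated lung, beside -0.11 and -0.10 over all genes counted. Of the genes counted in the operated lung, 36 had a higher ratio than LPL, 92 than ABCA1, 135 than INSIG2 and 149 than the lower bound of PPARG. In the non-operated lung the numbers were 71 for LPL, 103 for ABCA1 and 149 for PPARG, while 467 genes exceeded INSIG2.

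The lungs of the model differed far less from each other than from sham. Between operated and non-operated lung the middle 50% of 4944 genes had log2 ratios from -0.17 to 0.13, and 0.243% of genes differed by 2-fold or more. Of the 4 genes, 0 did. ABCA1 at 0.05 and PPARG at -0.02 lay inside the middle range, so the occluded and unoccluded sides cannot be ordered for these. LPL was outside it at 0.34, a 1.27-fold higher signal on the operated side, with 0.31 from its dimmer probe set, and 7.16% of genes had a higher ratio. INSIG2 was 1.63-fold higher on the operated side, at 0.71, and only 24 genes had a higher ratio. Without repeat arrays the noise on a single probe set such as that of INSIG2 is unknown.

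**Figure D2:**
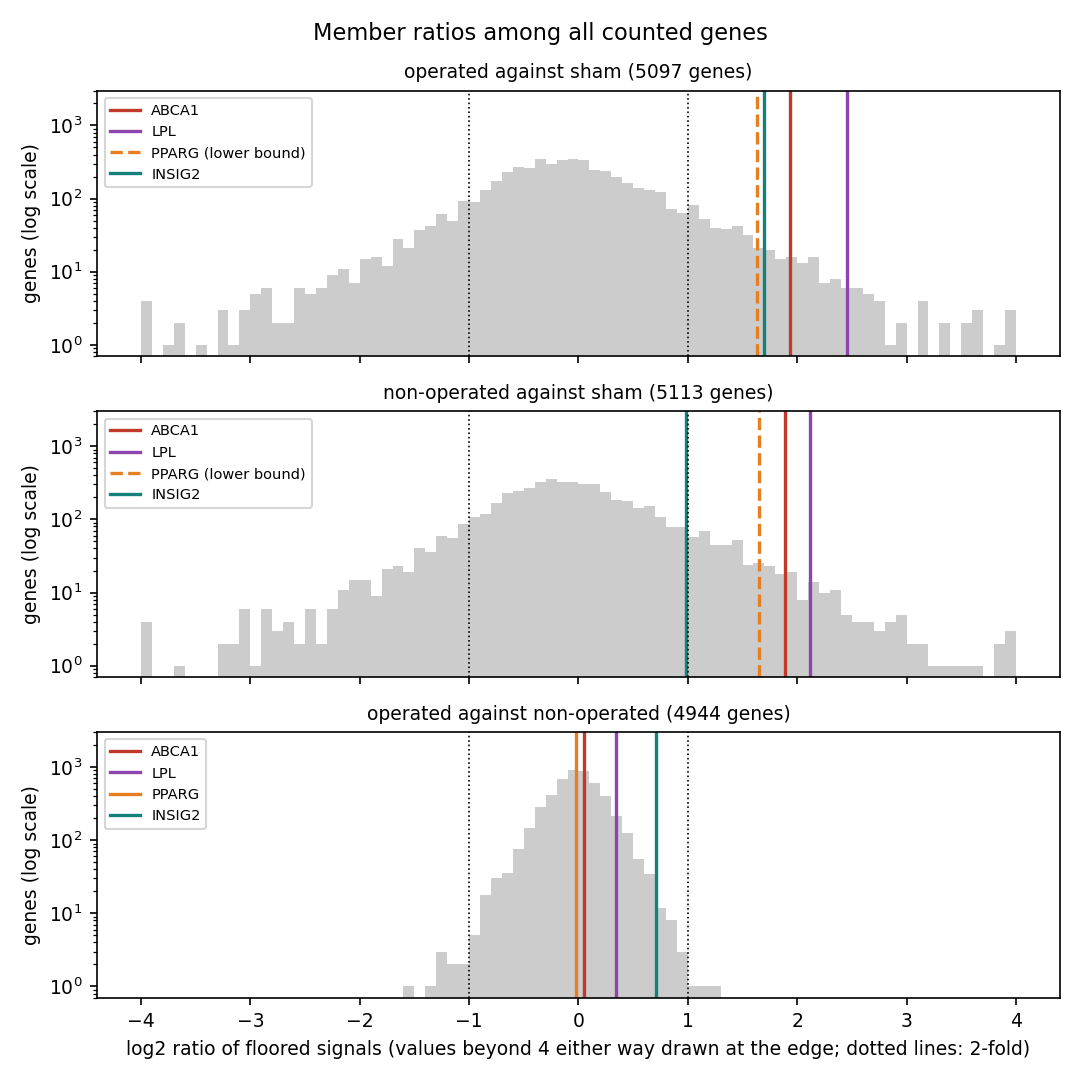
Histograms of log2 ratios over all counted genes (horizontal axis, number of genes on a log vertical axis) for operated against sham, non-operated against sham and operated against non-operated lung, with a coloured line for each of the 4 genes and a dashed line where the ratio is a lower bound. Against sham the lines lie between 0.99 and 2.45, and between the lungs of the model ABCA1 and PPARG sit at the centre while INSIG2 stands at 0.71.

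The disagreement between probe sets of 1 gene is the only internal gauge of error. Over 1004 genes with several probe sets counted in the operated lung, their log2 ratios against sham differed by a median of 0.39, and 90 percent of genes differed by no more than 1.08. By the same rule, which also takes in ratios bounded by the floor, the LPL pair differed by 2.04, and 0.996% of genes differed by more. In the non-operated lung the pair differed by 2.02, and 1.49% of genes by more. Since the dimmer set's ratios are lower bounds, these differences may be overstated. Without a floor the pair's log2 ratios in the operated lung were 2.45 and 1.28. Between operated and non-operated lung the LPL pair differed by 0.03, against a median of 0.22 over 919 genes. ABCA1, PPARG and INSIG2 offer no such check.

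Other genes of lipid handling lay on both sides of sham. Over 5 lists of pathway genes without the 4 themselves, 91 genes were on the array. Of the 63 counted in the operated lung, 11 were at least 2-fold higher, 0 lower and 52 within 2-fold, with a median log2 ratio of 0.27. In the non-operated lung, 12 of 64 were past 2-fold upward and 0 downward, and the median was 0.37. These shares, 17.5% and 18.8%, stand beside the 8.65% and 8.96% over all genes. The lists were written with earlier results of these arrays known.

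Around ABCA1, 11 cholesterol efflux and LXR genes were counted. Of these, 2 were at least 2-fold higher in the operated lung, beside 8.65% of all genes, and 1 in the non-operated lung, beside 8.96%, with medians of 0.41 and 0.50 on the log2 scale. MYLIP, an LXR target that encodes a ubiquitin ligase, read 11.27, 12.19 and 12.34 in sham, non-operated and operated lung, ratios of 0.92 and 1.07. CH25H, which makes 25-hydroxycholesterol, a sterol signal for both LXR and INSIG, had ratios of 1.27 in the non-operated and 1.04 in the operated lung. A dimmer CH25H set was under the floor on all arrays. NR1H3, which encodes LXR alpha, was at 9.17, 9.70 and 9.75, ratios of 0.52 and 0.58. NPC1, which exports cholesterol from lysosomes and was chosen after its values were seen, was at 0.80 and 0.88. APOE, a lipid acceptor that is also an LXR target, was at -0.13 and -0.37 by its brighter probe set, while a dimmer set, above the floor only in the operated lung, gave at least 0.24 there. SCARB1, the HDL receptor, likewise chosen after its values were seen, was at -0.27 and -0.81. The ABCA1 ratio of 1.93 was above that of each of the 11 efflux genes, whose highest was 1.07 in the operated lung. ABCA1 was chosen with its ratio known, so nothing is read from that order. No probe set carried the single symbol ABCG1.

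Around LPL, genes of lipoprotein handling and fatty acid uptake centred near 0. Of 14 counted, 2 were at least 2-fold higher in each lung, beside 8.65% of all genes for the operated and 8.96% for the non-operated lung. The medians were -0.02 for the operated and -0.08 for the non-operated lung. GPIHBP1, the capillary anchor that LPL needs, was under the floor on all 3 arrays, at 6.34, 6.03 and 6.25. ANGPTL4, a secreted inhibitor of LPL and a PPAR target, read 8.23 in sham, 9.31 in the non-operated and 8.83 in the operated lung. It was thus highest in the non-operated lung, at a ratio of 1.08 against 0.60, while LPL was highest in the operated lung. A dimmer ANGPTL4 set was under the floor on all 3 arrays. FABP3, a carrier of fatty acids inside cells, read 11.71, 12.11 and 12.76 and was 0.65 higher on the operated than on the non-operated side. Its step between the lungs was close to that of INSIG2. CAV1, the caveolin gene of endothelium and thin alveolar epithelium, was at 1.18 and 1.23 by its brightest probe set. A dimmer CAV1 set gave 1.84 and 2.01, and another gave 2.04 and 1.95. FABP4, the fatty acid carrier of adipocytes and some macrophages, was at -0.28 and -0.07. CD36 had no probe set under a single symbol.

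Around PPARG, the list of partners and targets held the largest ratios. In the operated lung 4 of 15 counted genes were at least 2-fold higher, beside 8.65% of all genes. In the non-operated lung it was 6 of 16, beside 8.96%, and the median was 0.53 in each. PDK4, a PPAR target that restrains glucose oxidation, read 7.10 in sham against 12.75 in the non-operated and 12.51 in the operated lung. By this brighter probe set that is at least 43.0-fold and at least 36.3-fold, log2 ratios of 5.43 and 5.18. A dimmer PDK4 set, also under the floor in sham, gave log2 ratios of at least 3.97 and at least 3.69. KLF15, a transcription factor of lipid and amino acid metabolism, was at 7.35, 9.69 and 9.64, starting at the edge of the floor. CEBPD and CEBPB, which act upstream of PPARG in fat cell formation, had log2 ratios of 2.40 and 1.50 in the non-operated and 2.26 and 1.54 in the operated lung. All 3 CEBPD probe sets were higher. PDK4, KLF15 and CEBPD are also known glucocorticoid-responsive genes, and what lies behind their ratios was not tested. Of the RXR partners, RXRA was under the floor on all 3 arrays, while RXRB, chosen after its values were seen, was above it at 8.57, 8.25 and 8.18. Targets typical of fat storage did not share these ratios, with ADIPOQ, the adiponectin gene, under the floor throughout and FABP4 near 0. PLIN2, the coat protein of lipid droplets in many cells, chosen after its values were seen, was at 0.58 and 0.81.

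Around INSIG2, sterol sensing and synthesis genes showed 0 of 13 counted genes past 2-fold in either lung. Over all genes, 8.65% were at least 2-fold higher in the operated and 8.96% in the non-operated lung. The list's medians were -0.06 for the operated and -0.18 for the non-operated lung. INSIG1, the close relative that is itself an SREBP target, read 10.85 in sham, 11.72 in the non-operated and 11.25 in the operated lung. It was highest in the non-operated lung, 0.47 above the operated side, whereas INSIG2 was 0.71 higher on the operated side. A dimmer INSIG1 probe set was under the floor on all arrays. The partners that INSIG2 holds back were a little lower in the lungs of the model. SCAP was at -0.24 in the non-operated and -0.62 in the operated lung, and SREBF2 at -0.35 and -0.56 by its brightest probe set. The other SREBF2 sets were under the floor on all arrays. SREBF1 was under the floor throughout. Among synthesis enzymes, both directions occurred. HMGCS1, which makes HMG-CoA, was at -0.92 and -0.73, FDPS at -0.41 and -0.63 and FDFT1 at -0.34 and -0.50, while SQLE was at 0.61 and 0.72 and SC5D at 0.90 and 0.59. These 5 enzymes were chosen after their values were seen.

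Of the genes of fatty acid synthesis and storage, a lipase that releases stored fat and its activator had the highest ratios in the operated lung. Of 13 counted, 3 were at least 2-fold higher in the operated lung, beside 8.65% of all genes, and 4 in the non-operated lung, beside 8.96%. The medians were 0.42 and 0.61. PNPLA2, the lipase of the first step of triglyceride breakdown, read 8.99, 11.16 and 11.14, ratios of 2.17 and 2.14, and its activator ABHD5 had ratios of 1.23 and 1.50. A second, dimmer PNPLA2 probe set was under the floor on all 3 arrays. MGLL, the lipase that completes the breakdown, was at 1.17 in the non-operated and 0.42 in the operated lung. A dimmer MGLL set was likewise under the floor on all 3 arrays. SCD5, a fatty acid desaturase, was under the floor in sham and at no less than 1.29 and 1.24. Synthesis genes lay on both sides, with FASN, the fatty acid synthase gene, at 0.83 and 0.68, the desaturase SCD at -0.32 and 0.13 and the elongase ELOVL6 at -0.98 or lower in the non-operated lung, where it was under the floor, and at -0.97 in the operated lung. These 3 were chosen after their values were seen.

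**Figure D3:**
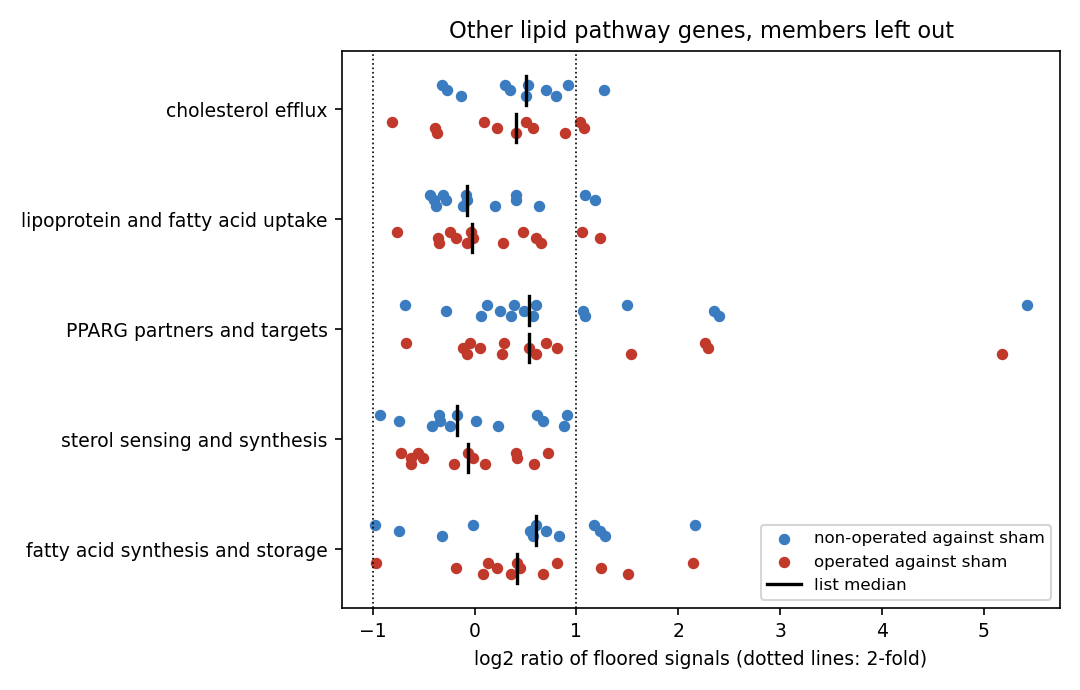
Log2 ratios against sham (horizontal axis) of the counted genes in 5 lipid pathway lists (vertical axis), without ABCA1, LPL, PPARG and INSIG2, with 1 point per gene, blue for the non-operated and red for the operated lung, and a black bar at each list's median. The sterol list has no point past the dotted 2-fold lines, and the farthest point is PDK4 at 5.43.

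In whole tissue, more cells of a type and more RNA per cell cannot be told apart. ABCA1, LPL and PPARG are all genes of alveolar macrophages, and macrophage markers were higher in the lungs of the model. Of 10 such markers on the array, 7 were counted in the operated lung and 5 were at least 2-fold higher, beside 8.65% of all genes. CD163 was at 2.01 and MRC1 at 2.53, while AIF1 at 0.59 and FCGR3A at 0.08 stayed within 2-fold. Their summed linear signal was 11351 in sham, 29479 in the non-operated and 29248 in the operated lung. MARCO read 5.88, 7.35 and 7.21, above the floor only in the non-operated lung, where its ratio was at least 0.02. CD14 and SIGLEC1 were under the floor and none was at 0. Endothelium, where LPL acts, had 9 of 10 counted markers at least 2-fold higher in the operated lung, beside 8.65% of all genes. Its sum went from 9398 in sham to 30661 in the non-operated and 27750 in the operated lung. Alveolar type 1 markers had sums of 12484, 34379 and 34755 and smooth muscle markers of 9642, 22287 and 20122 on the sham, non-operated and operated arrays. CAV1 made up a large part of the former and ACTA2 of the latter. ACTA2 itself stayed within 2-fold, at 0.93 in the non-operated and 0.64 in the operated lung. In the operated lung 4 of 6 alveolar type 1 and 4 of 5 counted smooth muscle markers were at least 2-fold higher, beside 8.65% of all genes. None of these 13 endothelial, 6 alveolar type 1 and 6 smooth muscle markers was at 0. Alveolar type 2 markers had sums of 36026, 44842 and 47587, of which SFTPC made up a large part. Of these 6 markers, 3 were at least 2-fold higher in the operated lung, beside 8.65% of all genes, with a median log2 ratio of 0.95. Among the 3 was SFTPB, the surfactant protein B gene, at 1.23. SFTPB was also 1.13 higher on the operated than on the non-operated side. In the non-operated lung 1 of the 6 was at least 2-fold higher, beside 8.96% of all genes, with a median of 0.44. SFTPC was at 0.12 in the non-operated and 0.08 in the operated lung, and SFTPA1 at -0.16 and 0.10. The part of these markers in the ratios of the 4 genes was not tested.

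Fat cell markers were dim or lower in the lungs of the model. Of 9 written, 6 were on the array and only FABP4 and CFD were above the floor, with CFD, the complement factor D gene, at -0.44 in the non-operated and -0.80 in the operated lung. ADIPOQ, LEP, LIPE and RETN were below the floor on all 3 arrays. The list's summed signal was 8997 in sham, 6727 in the non-operated and 5384 in the operated lung, and was carried by CFD. FABP4 read 8.03, 7.75 and 7.96 on those arrays and did not follow that order. Fibroblast markers also had lower sums in the lungs of the model, 14587, 13726 and 10423, but the list was split. Of 7 counted, 3 were above and 4 below 0 in each lung. The median log2 ratios were -0.15 in the operated and -0.08 in the non-operated lung, beside -0.11 and -0.10 over all genes. In the operated lung LUM was at -1.24 and FBLN1 at -1.20, while PLIN2 was at 0.81 and TCF21 at 0.20. B-cell markers had sums of 8096, 1274 and 1506. Striated muscle markers were under the floor on all 3 arrays. Of 5 hepatocyte genes, ALB, TTR and FGB were under the floor throughout, and the list's sums were 1004, 3332 and 3992. CYP7A1, which starts the conversion of cholesterol to bile acids, carried the difference. Its sham reading was under the floor and its signals were 10.94 and 11.41 in the non-operated and operated lung, log2 ratios of at least 3.62 and at least 4.09. Only 1 probe set read CYP7A1, and whether that set also reads another transcript was not tested.

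**Figure D4:**
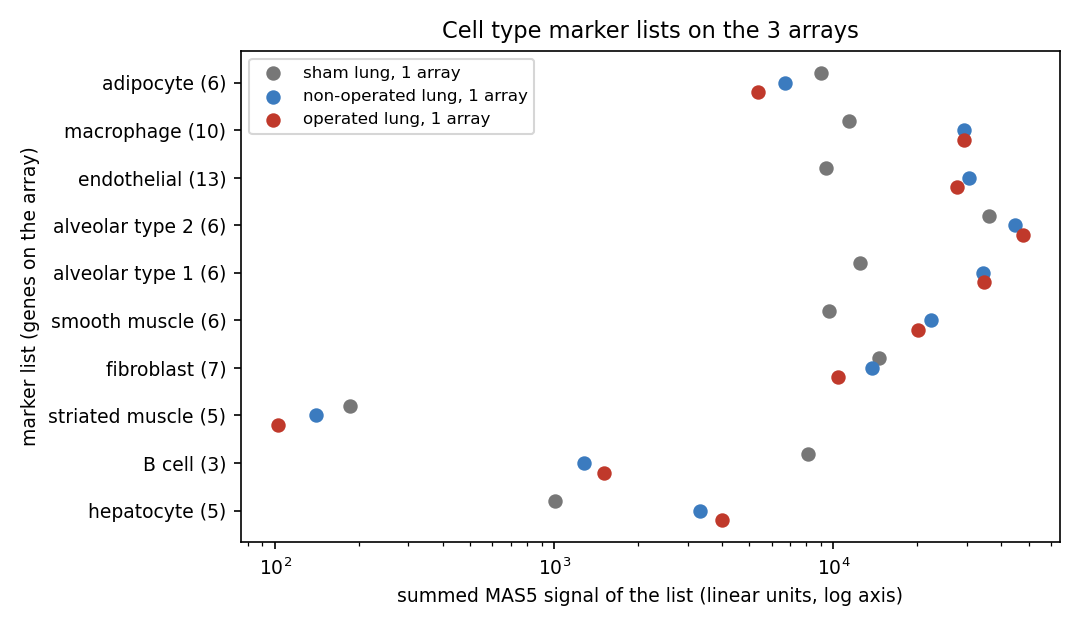
Summed linear MAS5 signal (log horizontal axis) of 10 cell type marker lists (vertical axis, number of genes on the array in brackets) in sham, non-operated and operated lung, 1 point per array. Macrophage, endothelial, alveolar type 1 and smooth muscle sums are lowest in sham, and adipocyte and B-cell sums are highest in sham.

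The genes whose pattern over the 3 arrays was closest to each of the 4 were found by the Euclidean distance between their floored log2 signals after removal of each gene's mean, among 5032 other genes. With 3 arrays many genes share a pattern, so these are descriptions only. ABCA1 was nearest to S1PR1, the endothelial sphingosine 1-phosphate receptor, at a distance of 0.02, followed by MAL2 at 0.03 and MXRA7 at 0.05. LPL was nearest to the tetraspanin gene TSPAN12 at 0.11, ACTG2 at 0.14 and the interferon-induced OAS1 at 0.15. PPARG was nearest to SLC31A2 at 0.04, BTBD3 at 0.05 and TAGLN, a smooth muscle gene, at 0.05. INSIG2 was nearest to TGFB2, a transforming growth factor gene, at 0.07, LPAR3, a lysophosphatidic acid receptor gene, at 0.13 and LIMA1 at 0.13. TGFB2 read 6.52, 8.23 and 9.02, with a step of 0.79 from the non-operated to the operated lung, against 0.71 for INSIG2, and a sham value under the floor. Among the 4 genes themselves, ABCA1 and PPARG were closest at 0.23 and LPL and INSIG2 farthest apart at 0.81. The sham value of PPARG was raised to the floor, so its nearest genes and the closest and farthest pairs depend on that floor. Unfloored, its log2 ratios against sham were 2.80 and 2.78 in the non-operated and operated lung, beside 1.89 and 1.93 for ABCA1.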

How the data were processed

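Per the submitters' processing notes the deposited log2 values come from MAS5; its version and scaling target are not stated. The log2 unit was read from the values, whose linear mean after trimming 2% at each end was 496 to 497 on every array. No further scaling was applied. The 64 reporter control probe sets were left out, and 0 columns of the table were unused. Gene names came from the platform annotation, and all 5 probe sets matched RefSeq (Sscrofa11.1) by gene identifier. The probe set with the highest mean log2 signal stood for a gene, and a gene counted in a comparison when either of its arrays exceeded the floor. "At least 2-fold" means 1 on the log2 scale. Ratios were computed with Python 3.11.15, pandas 2.3.3 and numpy 2.4.6, and the calculation was run on simulated data. The genes changed there were brighter in sham than any of the 4 genes, with all probe sets of a gene shifted alike. The simulation therefore did not cover dim sham readings, ratios bounded by the floor or probe sets that disagree. The 4 genes, 5 pathway lists and 10 marker lists were chosen with earlier results of these data known.

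The genes named are the 4 with every probe set, up to 4 per pathway list with the largest ratio of at least 2-fold against sham and all above-floor probe sets on 1 side, a set of direct partners whatever their values, and the 3 nearest patterns per gene. Marker genes were named from the 10 lists after their values were seen, and any further gene is marked where it is named. The alternatives were median and quantile scaling, floors at the 25th or 75th percentile, no floor, a pseudocount of 64 and the mean of all probe sets. The number of arrays limits the precision.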

Additional observations from a re-analysis of the deposited data

How the results depend on the processing

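Of 81 alternative values for the 4 genes' ratios, 71 moved by less than 1.5-fold and 0 reversed a ratio past 2-fold. The 10 that moved further were all ratios against sham, of ABCA1, LPL or PPARG. The 81 also include the ratios between operated and non-operated lung, of which none moved that far. With the floor raised to the 75th percentile, the operated lung's ratio was at least 0.33 for ABCA1 and at least 1.11 for LPL, the non-operated lung's at least 0.28 and at least 0.77, and PPARG had no value. The genes past 2-fold then numbered 2 in the operated and 0 in the non-operated lung. With the mean of both probe sets LPL was at no less than 1.72 in the operated and 1.39 in the non-operated lung. PPARG was at 2.78 and 2.80 both without a floor and with it lowered to the 25th percentile. The sham readings of ABCA1 and LPL lie under the raised floor, and that of PPARG lies under the main floor and above the lowered one. For LPL the mean takes in its dimmer probe set. INSIG2 in the non-operated lung lay near the 2-fold line, at 0.90 to 1.004, apart from the raised floor, where it was at least 0.70. Of 210 counts for pathway lists, 38 moved by more than 1.5 times or changed to or from 0. No replicate could be left out, and no paired analysis was possible because each group holds 1 array.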
